A study of Homo sapiens with 19 samples.

Results

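Re-expression of wild-type fibrillarin (FBL) was compared with an empty vector in Kasumi-1 cells whose own FBL was knocked down. Kasumi-1 is an established human acute myeloid leukaemia cell line. The comparison takes 4 of the 19 libraries, chosen by their sample titles and column names: 2 of FBL knockdown with wild-type FBL and 2 of FBL knockdown with the empty vector. All 120 ribosomal RNA (rRNA) sites with a deposited RiboMethSeq score were used: 71 lie in 28S rRNA, 47 in the 18S molecule and 2 in 5.8S. The libraries outside this pair served as comparisons: 2 of control knockdown with the empty vector, 2 each of FBL knockdown and control knockdown with nothing re-expressed, and 2 each of FBL knockdown with the mutants titled FBLTri and FBLQua. These knockdown libraries also entered the estimate of the spread behind the p-values of the main comparison. A single SNORD127 control clone was also read. The column names of the mutant libraries do not match their titles, so every test uses the mean of both mutant groups. All knockdown libraries, controls included, are labelled as treated with doxycycline at 100 ng/ml, which induces the knockdown. The column names give the same hairpin, shFBL4, for wild-type FBL and its empty vector, a luciferase hairpin for the control knockdown, and PCDH for the vector. Whether the re-expressed FBL escapes the hairpin, and at what level it was made, is not given in the sources used here. Neither FBL mRNA nor any cell type marker can be read from rRNA fragment ends, so the labels of knockdown, re-expression and cell type could not be checked with these files.

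In the nucleolus, FBL transfers the methyl group within ribonucleoprotein particles of the box C/D class. Each of these particles carries a guide RNA, named SNORD in human, which base pairs with pre-rRNA next to its box D or D' and so selects the nucleotide whose ribose receives a 2'-O-methyl group. Most human guides are cut from introns of other genes, often genes of ribosomal proteins or translation factors. RiboMethSeq reads the modification as a gap: a methylated ribose protects the bond next to it from alkali, so fewer fragments end there. The score used here, score C, is 1 minus the end count at the site divided by the weighted mean count of the positions around it. It approaches 1 where nearly all rRNA molecules are protected and is set to 0 where negative. Because it is a ratio inside 1 library, it reads protection relative to the flanks and not an amount of rRNA. It only approximates the fraction of molecules that are protected.

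The wild-type libraries held 11627924 and 14054606 end counts and the empty-vector libraries 11232162 and 11854968, within a range of 5533150 to 18835537 over all 19. Behind each score in these 4 libraries stood a mean flanking count with a median of 1152 and a range of 100.3 to 33690. The 95% Poisson interval of a score had a median half-width of 0.0181 and at most 0.159; such intervals cover counting error only. The 2 libraries of a group differed by a median of 0.0113 with wild-type FBL and 0.0130 with the empty vector, and at single sites by up to 0.296 and 0.226. The labels do not say that replicates came from separate cultures, so the p-values measure the spread between libraries, which may be technical. In the second library of control knockdown with empty vector, 20.79% of all counts fell on 1 position, and results that rest on that library are also given without it.

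Across the whole set of sites the score was higher with wild-type FBL. The mean over the 120 sites was 0.808 and 0.811 in the wild-type libraries, against 0.715 and 0.727 in the empty-vector libraries and 0.864 and 0.872 in control knockdown with the same vector. The groups do not overlap, and wild-type FBL lies between empty vector and control. The difference of the means was 0.0886 (0.809 ± 0.00232 with wild-type FBL, 0.721 ± 0.00885 with empty vector, SD, n = 2 each); an exact permutation test of 2 against 2 libraries cannot give a p below 0.333. Sites at 0.9 or above in both libraries numbered 69 with wild-type FBL, 34 with the empty vector and 82 in the control.

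Site by site, 69 of 120 sites rose with wild-type FBL and 1 fell (limma, Benjamini-Hochberg adjusted over the 120 sites, threshold 0.05). These counts are 57.5% and 0.833% of the sites tested. Both wild-type libraries lay above both empty-vector libraries at 90 sites, or 75%, and below them at 2, or 1.67%. Of the sites that rose, 14 gained at least 0.2, 22 gained 0.1 to 0.2 and 33 gained less than 0.1. Their median gain was 0.109 and the smallest 0.00997. These directions rest on the score as deposited. If the library medians are made equal first, which subtracts the difference between the groups' median scores, 0.0958, from every change, 20 sites are called higher and 50 lower. A gain below 0.0958 is thus a gain in the score itself that turns negative under that scaling. Of the 69 rises, 51 stayed called whichever of the 4 libraries was left out. The error of the main fit comes from all 14 knockdown libraries. With the 2 compared groups alone, 58 sites were called higher and 0 lower by limma.

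**Figure D1:**
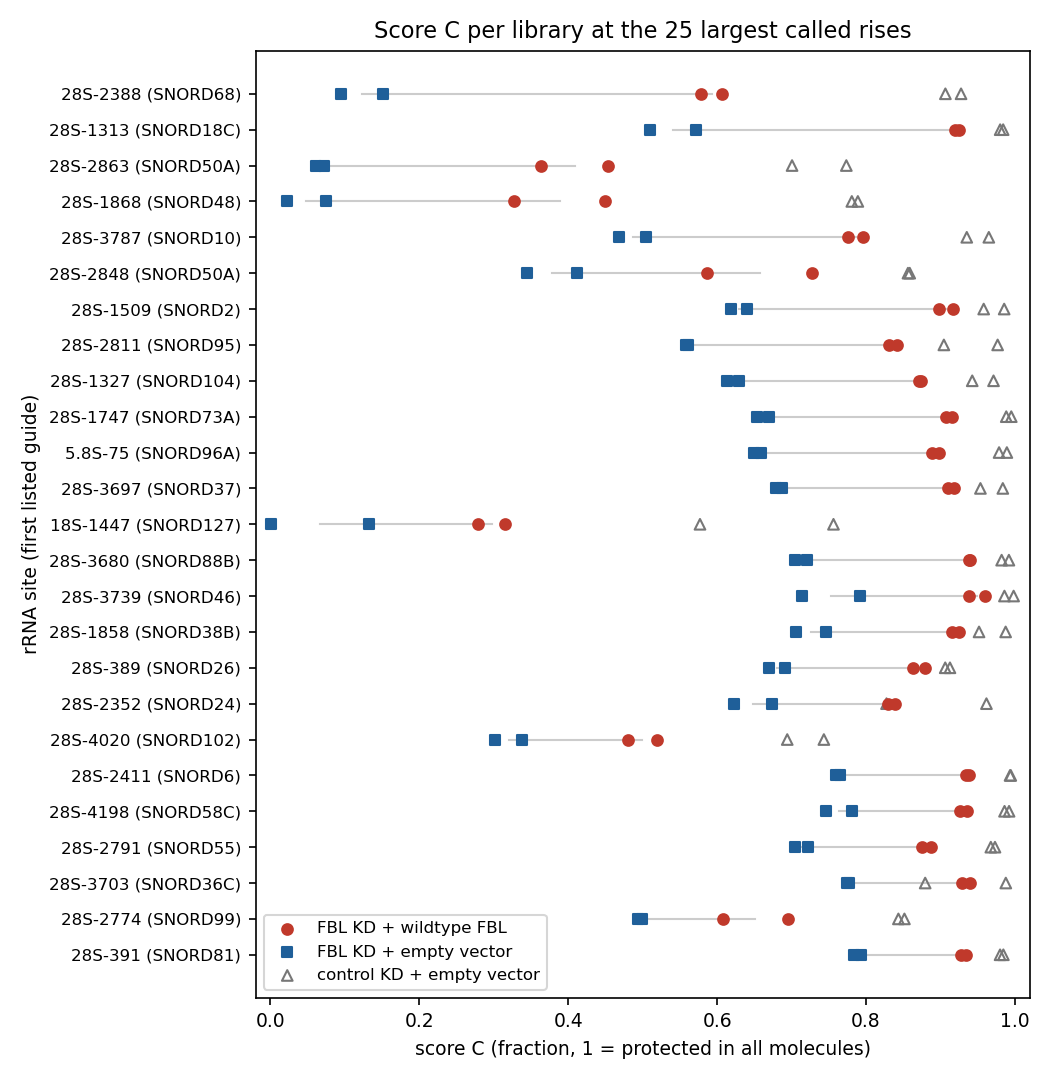
Score C per library at the 25 largest rises among sites called by limma, with the sites down the page and the score (a fraction) across; circles are FBL knockdown (KD) with wild-type FBL, squares FBL KD with empty vector and triangles control KD with empty vector, 2 libraries each, and the line joins the means of the first 2 groups. At 28S-2388 the wild-type libraries reach 0.579 and 0.606, against 0.0945 and 0.151 with the empty vector.

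The largest gain was at 28S-2388, guided by SNORD68 from an intron of the ribosomal protein gene RPL13. It scored 0.579 and 0.606 with wild-type FBL, 0.0945 and 0.151 with the empty vector, and 0.928 and 0.907 in the control. By this score the site was protected in part of the molecules with wild-type FBL and in few with the empty vector, with no overlap between groups. In raw ends, the site had 4794 and 8250 counts against flanking means of 11381 and 20951 with wild-type FBL, and 10244 and 11965 counts against flanking means of 11313 and 14101 with the empty vector. The change was 0.470 (SE 0.0248, limma adjusted p = 9.87e-07).

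Next came 28S-1313, the site of the SNORD18 family encoded in introns of RPL4. Its scores were 0.925 and 0.919 with wild-type FBL, 0.571 and 0.510 with the empty vector, and 0.984 and 0.980 in the control. Unlike 28S-2388, this site came close to the control level: the gain was 0.382 (SE 0.0206, limma adjusted p = 9.87e-07), and the remaining difference from the control of -0.0599 was not called (limma adjusted p = 0.0589). Only 76 and 113 ends were counted there with wild-type FBL, against 457 and 553 with the empty vector. SNORD104, encoded in SNHG25, guides the neighbouring 28S-1327, which scored 0.871 and 0.874 with wild-type FBL, against 0.629 and 0.614 with the empty vector (change 0.251, SE 0.0315, limma adjusted p = 0.000129).

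Other sites in the 5' part of 28S rRNA also showed gains to different levels. At 28S-1868, guided by SNORD48 of the host gene SNHG32, the score was 0.450 and 0.328 with wild-type FBL and 0.0222 and 0.0742 with the empty vector, while the control had 0.781 and 0.789. The gain of 0.341 (SE 0.0400, limma adjusted p = 9.46e-05) left a difference of -0.396 from the control. In contrast, 28S-1509, the target of SNORD2 from an intron of the translation factor gene EIF4A2, was at 0.899 and 0.916 with wild-type FBL, against 0.619 and 0.640 with the empty vector. At 28S-1747, guided by SNORD73A from RPS3A, the scores were 0.915 and 0.907 against 0.669 and 0.654 with the empty vector. These sites gained 0.278 (SE 0.0150) and 0.250 (SE 0.0162), with limma adjusted p of 9.87e-07 and 3.13e-06. Of the 15 sites between 28S-389 and 28S-1868, 10 rose and none fell by limma, with a median change of 0.143, which stayed above 0 with library medians made equal, at 0.0476. The median over all 120 sites was 0.0533, or -0.0425 with equal medians. The site 28S-1303 of SNORD21, at 0.778 and 0.733 with wild-type FBL and 0.628 and 0.659 with the empty vector, did not pass (change 0.112, 95% confidence interval -0.0332 to 0.257, limma adjusted p = 0.169).

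Further along, between 28S-2338 and 28S-2863, 14 of 17 sites rose and the median change was 0.139 (0.0429 with library medians made equal). Both sites of SNORD50A, a guide hosted by SNHG5, are here. At 28S-2863 the wild-type libraries scored 0.453 and 0.364, the empty-vector libraries 0.0615 and 0.0722, and the control 0.701 and 0.774. At 28S-2848 they scored 0.728 and 0.587, against 0.344 and 0.411 with the empty vector and 0.859 and 0.856 in the control. Both groups were apart at both sites. The gains were 0.342 (SE 0.0482, limma adjusted p = 0.000283) and 0.279 (SE 0.0605, limma adjusted p = 0.00377); that at 28S-2848 was no longer called in a fit of the 2 groups alone (limma adjusted p = 0.0513).

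SNORD95, from an intron of RACK1, guides 28S-2811, with scores of 0.831 and 0.841 with wild-type FBL and 0.561 and 0.558 with the empty vector (change 0.277, SE 0.0214, limma adjusted p = 7.53e-06). Around it, 28S-2791 of SNORD55 gained 0.167, 28S-2774 of SNORD99 gained 0.155, 28S-2824 of SNORD34 gained 0.139 and 28S-2802, also of SNORD95, gained 0.117. Upstream, the SNORD24 site 28S-2352 gained 0.186, the SNORD6 site 28S-2411 gained 0.174 and the SNORD5 site 28S-2409 gained 0.131. All these were called, but with the 2 groups alone 28S-2774 was not (limma adjusted p = 0.0617). The call at 28S-2352 was lost on the log2 scale (limma adjusted p = 0.112) and on a logit scale (0.0857). The smallest standard error among them was at 28S-2411, which scored 0.934 and 0.939 with wild-type FBL against 0.766 and 0.760 with the empty vector (SE 0.00705, limma adjusted p = 4.59e-07).

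Of the 20 sites between 28S-3680 and 28S-4032, 17 rose, and the median change was 0.1002 (0.00440 with library medians made equal). The largest was at 28S-3787, guided by SNORD10 from an intron of the translation factor gene EIF4A1. Its scores were 0.776 and 0.796 with wild-type FBL, 0.469 and 0.505 with the empty vector, and 0.935 and 0.965 in the control, a gain of 0.299 (SE 0.0248, limma adjusted p = 1.22e-05). The SNORD37 site 28S-3697, whose guide lies in the elongation factor gene EEF2, had 0.918 and 0.910 with wild-type FBL and 0.679 and 0.687 with the empty vector (change 0.232, SE 0.0278). At 28S-3680 of the SNORD88 family the scores were 0.939 and 0.940 against 0.721 and 0.704 with the empty vector (change 0.227, SE 0.0142). Both passed, with limma adjusted p of 0.000102 and 2.75e-06. Smaller called gains were 0.196 at 28S-3739 of SNORD46, 0.180 at 28S-4020 of SNORD102, which lies in RPL21, and 0.159 at 28S-3703 of SNORD36C. The SNORD87 site 28S-3723 moved less: its scores of 0.625 and 0.647 with wild-type FBL, against 0.506 and 0.540 with the empty vector, gave a gain of 0.114 (SE 0.0318, limma adjusted p = 0.0149), and its difference from the control was -0.286. The gain was 0.0967 without the first empty-vector library and 0.103 without the second wild-type library, and not called in either case (limma adjusted p = 0.0950 and 0.0733).

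Between 28S-4166 and 28S-4937, in the part of 28S rRNA that holds the peptidyl transferase centre, 10 of 19 sites rose, a share of 52.6% close to the 57.5% of all sites, and 9 were not called. The median change there was 0.0368 as deposited and -0.0591 with library medians made equal. SNORD58, from RPL17, guides the adjoining sites 28S-4197 and 28S-4198, which gained 0.0594 (-0.0364 with equal medians) and 0.168. The SNORD72 site 28S-4590, at 0.766 and 0.753 with wild-type FBL and 0.635 and 0.628 with the empty vector, gained 0.128 (SE 0.0331, limma adjusted p = 0.0101). Neighbouring 28S-4588, guided by SNORD91A and SNORD91B, had 0.443 and 0.472 with wild-type FBL, against 0.349 and 0.401 with the empty vector. Its change of 0.0823 was not called (95% confidence interval -0.145 to 0.310), nor was that of 0.0674 at the SNORD119 site 28S-4560 (-0.128 to 0.262). Both sites were partly protected in the control too, at 0.685 and 0.845 for 28S-4588 and 0.716 and 0.643 for 28S-4560. For 28S-4469 the files name no guide; in yeast the equivalent nucleotide is methylated by Spb1, an enzyme that works without a guide RNA. It scored 0.99004 and 0.992 with wild-type FBL, 0.983 and 0.993 with the empty vector, and 0.992 and 0.993 in the control, and its change was 0.00302 (95% confidence interval -0.00935 to 0.0154).

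**Figure D2:**
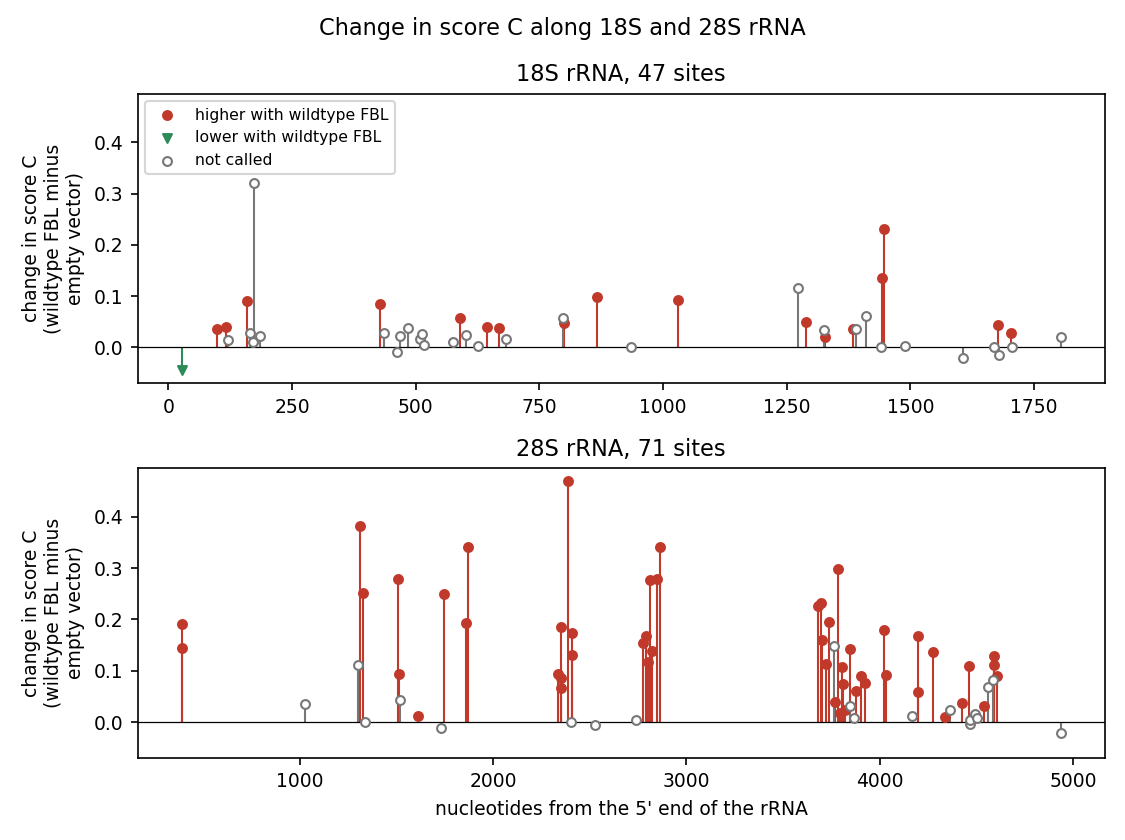
Change in score C (wild-type FBL minus empty vector, n = 2 each) against the position in nucleotides from the 5' end of 18S rRNA (47 sites, upper panel) and 28S rRNA (71 sites, lower panel); filled circles are sites called higher, the triangle the site called lower and open circles sites not called by limma. Rises of 0.2 or more are mostly in 28S rRNA, while 18S rRNA has 17 called rises, the largest 0.230 at 18S-1447; with library medians made equal every point moves down by 0.0958.

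The sites in 5.8S rRNA behaved differently from each other. At 5.8S-75, guided by SNORD96A and SNORD96B, the score was 0.889 and 0.898 with wild-type FBL, 0.649 and 0.659 with the empty vector, and 0.979 and 0.989 in the control, a gain of 0.239 (SE 0.0163, limma adjusted p = 3.76e-06). At 5.8S-14, the SNORD71 site, the scores were 0.831 and 0.820 with wild-type FBL and 0.807 and 0.800 with the empty vector. That change of 0.0218 (-0.0740 with equal medians) was not called, with a 95% confidence interval of -0.0358 to 0.0794 and a limma adjusted p of 0.524. The difference between the sites was not itself tested.

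In 18S rRNA 17 of 47 sites rose, 1 fell and 29 were not called. The median change was 0.0281 in 18S and 0.0944 in 28S rRNA, where 51 of 71 rose; with library medians made equal these become -0.0677 and -0.00139. With the empty vector, the median score was 0.887 at the 18S sites and 0.775 at the 28S sites. Between 18S-27 and 18S-668, 7 of 23 sites rose (median change 0.0260, or -0.0698 with equal medians), and between 18S-683 and 18S-1804, 10 of 24 (0.0348, or -0.0610). Among the called rises were 0.134 at 18S-1442 of SNORD61, a guide in RBMX, 0.0974 at 18S-867 of SNORD98, 0.0918 at 18S-1031 of SNORD59A and SNORD59B, and 0.0912 at 18S-159, a site of SNORD45A and SNORD45C. With library medians made equal, 18S-1031 and 18S-159 turn to -0.00401 and -0.00463. At 18S-1442 the wild-type libraries had 0.890 and 0.903, and the empty-vector libraries 0.764 and 0.760.

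The largest called rise in 18S rRNA was at 18S-1447, the target of SNORD127, whose knockout is the subject of other libraries of the series. It scored 0.316 and 0.279 with wild-type FBL, 0.133 and 0.000717 with the empty vector, and 0.577 and 0.756 in the control. The groups did not overlap, and the empty-vector libraries lay farther from each other than the wild-type libraries did. The change was 0.230 (SE 0.0666, limma adjusted p = 0.0173). It was 0.164 without the second empty-vector library (limma adjusted p = 0.108) and 0.212 without the first wild-type library (limma adjusted p = 0.0769); over all alternatives the adjusted p ranged between 0.0078 and 1.00.

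A larger numerical change in 18S rRNA did not pass the test. At 18S-174, guided by SNORD45C, the scores were 0.699 and 0.718 with wild-type FBL and 0.348 and 0.429 with the empty vector, and the control had 0.825 in 1 library and 0 in the other. The change of 0.320 (SE 0.215, 95% confidence interval -0.172 to 0.812, limma adjusted p = 0.239) takes its error from all 14 knockdown libraries. The control library at 0 is the one with 20.79% of its counts on 1 position. Without it the limma adjusted p was 0.0129, and with the 2 compared groups alone 0.0122.

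The site that fell was 18S-27, guided by SNORD27. It had 0.916 and 0.960 with wild-type FBL, 0.989 and 0.975 with the empty vector, and 0.972 and 0.956 in the control, so all libraries were highly protected. The scores rest on 21 and 12 ends with wild-type FBL and on 3 and 5 with the empty vector. The change was -0.0442 (SE 0.0129, limma adjusted p = 0.0178), -0.0375 without the first empty-vector library and -0.0223 without the first wild-type library, and neither of the last 2 values was called (limma adjusted p = 0.108 and 0.0832).

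Of the 50 sites that were not called, 20 were at 0.9 or above in all 4 libraries, and 6 were at 0 in all 4. At 21 of the 50 both wild-type libraries still lay above both empty-vector libraries. The 13 sites for which the files list only a predicted or unknown guide gave no call (limma; 0 of them passed at an unadjusted p under 0.05), against 69 rises among the other 107, or 64.5%. Many of these sites had low scores: their median was 0.148 with wild-type FBL and 0.168 with the empty vector. A rise was called at 28S-2351, which has no guide named: 0.968 and 0.973 with wild-type FBL, against 0.904 and 0.905 with the empty vector (change 0.0662, or -0.0296 with library medians made equal).

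A score of 0 can hide a difference. At 28S-2402, the site of SNORD143 and SNORD144, all 4 libraries were at 0, while the control had 0.652 and 0.662. More ends were counted there than in the flanks, 25912 and 43656 with wild-type FBL and 30255 and 39924 with the empty vector. Computed without setting negative scores to 0, the values were -0.247 and -0.296 with wild-type FBL, and -0.674 and -0.728 with the empty vector, a difference of 0.430 (limma adjusted p = 6.62e-05). In the deposited score 28S-2402 was the farthest below the control, by -0.657. A possible fall at 18S-1705, likewise at 0 in all 4 libraries, also lay below the floor. The first wild-type library had 243 ends there against a flanking mean of 175.6, and the empty-vector libraries 181 against 158.9 and 159 against 143.5. Without setting scores to 0 this site was called lower (limma adjusted p = 0.0460), and 70 sites were called higher and 2 lower. That call is borderline: of the 15 alternatives run for 18S-1705, 14 did not give it. These include the log2 scale and the fit over all positions.

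Some guides serve more than 1 site, so that the same guide RNA and the same FBL can be followed at 2 nucleotides. There were 12 such pairs of sites, served by 16 guides. Both sites rose in 7 pairs and 1 site in 5, and in no pair did neither rise. As a share of sites and not of pairs, 57.5% of all sites rose, and 64.5% of the 107 without a predicted or unknown guide. Among the 5 pairs, the site not called had the larger change for SNORD45C (0.320 against 0.0912), SNORD15A (0.148 against 0.0391) and SNORD80 (0.0436 against 0.0108). The called site had the larger change for SNORD45A and SNORD62. The changes of the sites in a pair differed by a median of 0.0861 and by 0.0328 to 0.386. The widest gap was for SNORD68, with 0.470 at 28S-2388 and 0.0839 (-0.0119 with equal medians) at 18S-428, where the score was 0.924 and 0.902 with wild-type FBL and 0.820 and 0.837 with the empty vector. SNORD95 gave 0.277 at 28S-2811 and 0.117 at 28S-2802, SNORD24 gave 0.186 at 28S-2352 and 0.0944 (-0.00139) at 28S-2338, and SNORD30 gave 0.108 at 28S-3804 and 0.0358 (-0.0600) at 18S-1383. SNORD62 is a pair in which 18S-590 rose by 0.0579 (-0.0379 with equal medians), whereas 28S-4468 was at 0.993 and 0.9902 with wild-type FBL and 0.994 and 0.998 with the empty vector, and was not called. No test of a difference within a pair was made.

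**Figure D3:**
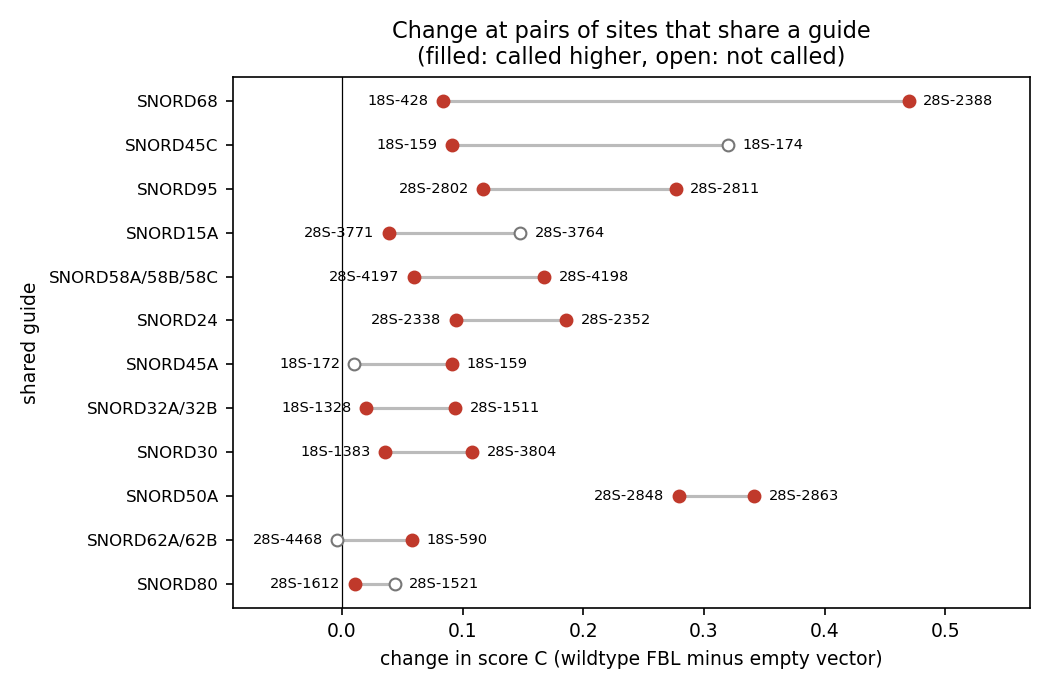
Change in score C (wild-type FBL minus empty vector, n = 2 each, horizontal axis) at the 12 pairs of sites that share a guide, 1 pair per row with its guide at the left; filled circles were called higher by limma and open circles were not called. The pair of SNORD68 lies farthest apart, at 0.470 and 0.0839, and SNORD50A has gains of 0.342 and 0.279; with library medians made equal all points move left by 0.0958.

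Guides that share a host transcript were also described together. The GAS5 guides, encoded in a long non-coding RNA of growth arrest, serve 10 sites, of which 7 rose (median change 0.0588, or -0.0370 with equal medians); the largest was 0.143 at 28S-391 of SNORD81. The SNHG1 guides serve 8 sites, with 3 rises and the single fall, at 18S-27 (median 0.0251, or -0.0707); the largest was 0.190 at 28S-389 of SNORD26. Of 5 sites of the RPL13A guides 3 rose (median 0.0344, or -0.0614), led by 28S-2824, and of 2 sites of the RPL23A guides 1 rose, 18S-116 with 0.0396 (-0.0563); this call was lost without the first empty-vector library (0.0267, limma adjusted p = 0.236), without the second wild-type library (0.0238, limma adjusted p = 0.259) and with the 2 groups alone (limma adjusted p = 0.143). Among the sites of SNORD14, SNORD43 and SNORD104, 2 of 3 rose: 28S-1327 and, with 0.0281 (-0.0677), the SNORD43 site 18S-1703. The scores at 18S-1703 rest on 2 ends in each wild-type library and 6 in each empty-vector library, and leaving out any 1 of these 4 ended the call (limma adjusted p of 0.0658 to 0.0936). Beside 69 of all 120 sites, these counts are small and are given as descriptions. Sites with 1 listed guide rose in 50 of 73 cases (median 0.0926, or -0.00323 with equal medians) and those with 2 or more guides in 18 of 31 (0.0469, or -0.0489).

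The loss of methylation could be measured in other libraries, which enter the comparison above only through the shared estimate of the spread: FBL knockdown against control knockdown with no vector and nothing re-expressed. There 71 sites were lower in the FBL knockdown, 59.2% of those tested, and 2 were higher (limma adjusted p under 0.05). With library medians made equal 51 were higher and 28 lower. In a fit over all rRNA positions 46 sites were lower. So were 14 of 3034 positions more than 12 nucleotides from any deposited site, and 5 such positions were higher. The change was 0.1 or more at 26.8% of these positions and -0.1 or less at 23.5%. The column names of these FBL knockdown libraries do not give shFBL4. Their median flanking counts were 329 and 139, against 1156 and 1145 with the empty vector. Their mean scores were 0.784 and 0.784, against 0.715 and 0.727. Of the 71 sites 61 rose with wild-type FBL, which is 85.9% of the sites that fell and 88.4% of those that rose. Among the 49 sites not called lower 8 rose, or 16.3%, beside 57.5% of all sites. Over the 120 sites the gain and the loss had a Spearman correlation of -0.772, as a description across sites of the same molecules. At 28S-1868 the loss was -0.661 and the gain 0.341, and at 28S-2388 they were -0.386 and 0.470. Loss and gain come from knockdown libraries with different mean scores, so their sizes cannot be read as a share recovered. With wild-type FBL, 28S-2388 still differed by -0.325 from control knockdown with the empty vector.

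A called fall in the FBL knockdown without a called rise was seen at 10 sites: 18S-166, 18S-683, 18S-1326, 18S-1391, 18S-1705, 28S-1303, 28S-1521, 28S-2402, 28S-3764 and 28S-4506. The last but one, guided by SNORD15A and SNORD15B from RPS3, scored 0.836 and 0.911 with wild-type FBL against 0.671 and 0.781 with the empty vector, a change of 0.148 with a limma adjusted p of 0.0704; with the replicate block it was called (limma adjusted p = 0.0214). At 69 of the 71 sites that fell, both wild-type libraries lay above both empty-vector libraries. The exceptions were 28S-2402 and 18S-1705, which were at 0 in all 4 libraries. The sites 18S-1326 and 28S-1521 were called higher in some alternative settings, and lower with library medians made equal. In the other direction, 8 sites rose without a called loss: 18S-99, 18S-428, 18S-799, 18S-1678, 18S-1703, 28S-1612, 28S-3809 and 28S-4464. Only 2 of these 8, 18S-428 and 28S-3809, stayed called whichever of the 4 libraries was left out. The largest of these gains were 0.109 at 28S-4464 of SNORD69, where the loss was -0.0742 and not called (the gain was 0.0780 without the first empty-vector library, limma adjusted p = 0.0993, and 0.0910 without the first wild-type library, limma adjusted p = 0.0767), and 0.0839 at 18S-428. Split by the score in the FBL knockdown libraries with nothing re-expressed, 31 of 39 sites at 0.7 to 0.9 rose (median 0.134, or 0.0387 with equal medians), against 28 of 55 at 0.9 or above (0.0281, or -0.0677) and 10 of 26 below 0.7 (0.0748, or -0.0210).

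Set against control knockdown with the same vector, wild-type FBL left 35 sites lower, 29.2% of those tested, and 1 higher, 18S-1410 with 0.162 (limma adjusted p = 0.0129). With library medians made equal, 25 were higher and 13 lower. Without the control library that has 20.79% of its counts on 1 position, 28 sites were lower and none higher by limma. In the fit over all rRNA positions only 3 were called, all lower: 28S-2388, 28S-2402 and 28S-3723. This comparison shares its wild-type libraries with the main one. The 35 lower sites comprised 25 of the 71 in 28S rRNA, 9 of the 47 in 18S rRNA and 5.8S-75. The largest remaining differences were -0.657 at 28S-2402, -0.396 at 28S-1868, -0.369 at 18S-1447, -0.329 at 28S-2863 and -0.325 at 28S-2388, all called in the fit over the 120 sites. The last 4 are sites that also rose with wild-type FBL, so a called gain and a called remaining difference stood at the same nucleotide. The differences from the control use the mean of both control libraries, and their order was not checked without the second. Sites without a called difference from the control included 28S-1313, 28S-3739 and 28S-1858, which had gained 0.382, 0.196 and 0.193. A p above the threshold does not show that these equal the control; for 28S-1313 the difference was -0.0599 (limma adjusted p = 0.0589).

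Wild-type FBL was also compared directly with the mutants, over the mean of both mutant groups. It was higher at 79 sites, 65.8% of those tested, and lower at none (limma; 1 site was lower at an unadjusted p under 0.05). With library medians made equal, 25 were higher and 48 lower; in the fit over all rRNA positions 45 were higher. The widest difference was at 28S-2388, at 0.580 (limma adjusted p = 1.11e-07), where the group means were 0 for the libraries titled FBLTri and 0.0241 for those titled FBLQua. At 28S-1868 the difference was 0.387, with mutant means of 0 and 0.00387. By contrast, 28S-1313 had means of 0.779 and 0.695 with the mutants, above the 0.571 and 0.510 of the empty-vector libraries, and differed from wild-type FBL by 0.185. The sites 5.8S-75 and 18S-159 differed by 0.260 and 0.254 (limma adjusted p = 8.53e-07 and 1.11e-07). At 18S-159 wild-type FBL had 0.933 and 0.948, the mutant means were 0.656 and 0.717, and the empty-vector libraries, at 0.842 and 0.856, lay above the mutants.

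Finally, the change at the deposited sites was set beside that at other rRNA positions, with scores computed the same way from the end counts and not set to 0. Positions more than 12 nucleotides from any deposited site numbered 3034. Their median change was -0.00198, with quartiles of -0.0343 and 0.0328, against a median of 0.0576 and quartiles of 0.0209 and 0.137 at the 120 deposited sites. Both wild-type libraries lay above both empty-vector libraries at 304 of these other positions, 10%, and at 75.8% of the deposited sites. In a limma fit over all positions, 35 of the 120 sites were called higher, 29.2%, and 1 of the 3034 other positions, 0.033%. Just 11 of these 3034 had an unadjusted limma p under 0.05, fewer than chance alone gives at that threshold. The fit could thus hardly call such positions, and its count there decides little. The change was 0.1 or more at 184 of the 3034 positions and -0.1 or less at 170. At the 120 deposited sites these counts were 41 and 2. The change was thus larger and mostly upward at the deposited sites. Each count at the other positions also enters its neighbours' flanks, which holds their median change near 0 by construction. They therefore cannot show whether a difference between whole libraries moved the score at protected sites, which was not tested.

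**Figure D4:**
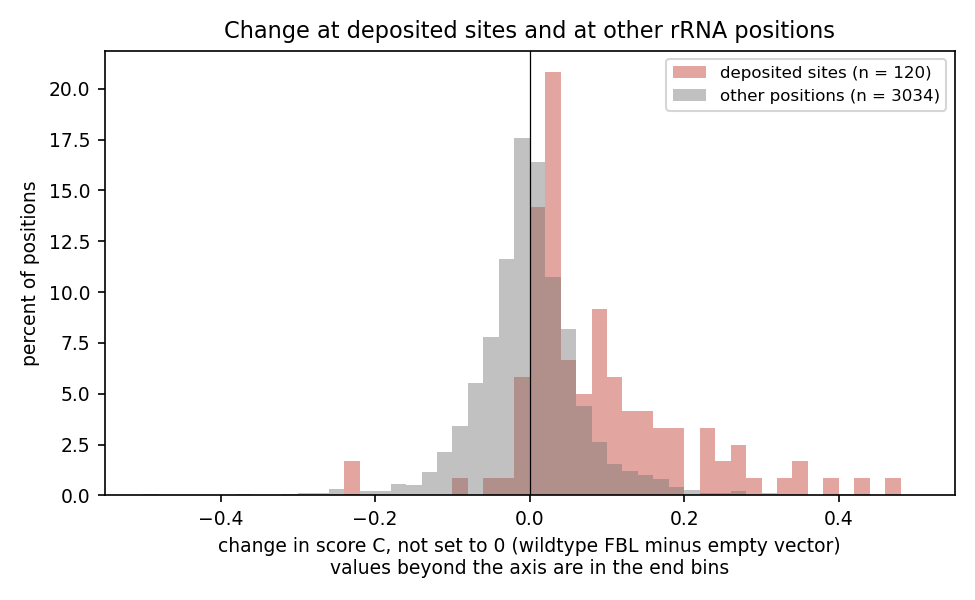
Distribution of the change in score C, computed without setting negative scores to 0 (wild-type FBL minus empty vector, n = 2 each, horizontal axis), as percent of positions, for the 120 deposited sites and for 3034 other rRNA positions. The other positions centre at -0.00198 and the deposited sites at 0.0576.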

How the data were processed

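RiboMethSeq of total RNA was made from 100 ng RNA, broken in alkali (12 min at 95 °C, fragments near 30 nucleotides), per the labels' protocols. The tools cutadapt and Bowtie2 were used, per the submitters' processing notes, with no versions or settings named there. End counts at 7000 rRNA positions, not normalized, were deposited by the authors, who also deposited score C as a fraction for 120 sites with their guides. Site numbers are the files' rRNA positions; no genome build or methylated base is given, so neither is printed. Recomputing the score with 6 flanking positions on either side, weights of 1 to 0.5 and the count 1 position after the site gave the deposited value in 2280 of 2280 cases within 1e-09. Poisson intervals (95%) came from the counts. A listed neighbour within 6 nucleotides, present at 44 sites, enters a site's flanks.

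Groups followed the sample titles. limma 3.58.1 in R 4.3.3 was fitted to score C in the 14 knockdown libraries (7 groups of 2; coefficient per group, variance trend, two-sided, Benjamini-Hochberg over 120 sites, threshold 0.05); a fit over all positions, added after seeing the data, needed a mean flanking count of at least 100 in each of the 4 compared libraries and 5 in the other knockdown libraries. The fit was tested on simulated data. Library pairs differed beyond sampling noise (chi-square per position of 99.7 for wild-type FBL and 29.7 for empty vector). Replicate numbers were not taken as pairs in the main fit. However, 12 of 21 correlations of same-numbered deviations exceeded 0.1, over a range of -0.226 to 0.694. A fit with a replicate block was therefore also given, with 69 sites called by limma for wild-type FBL against empty vector. Tables and plots used pandas 2.3.3, matplotlib 3.10.9, scipy 1.17.1 and numpy 2.4.6 in Python 3.11.15. The members, lists and named sites were chosen with earlier results of these data known. Named sites were the call that fell, the 25 largest called rises with no overlap, up to 4 members of each list, the SNORD127 site, the 5 lowest against control and sites at 0 with wild-type FBL; the sites counted as exceptions between comparisons, the ends of regions, 18S-1410, 28S-2409, 28S-3723, 28S-4560 and 28S-4588 were named after their values were seen.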

Additional observations from a re-analysis of the deposited data

Results flagged for a closer look

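A position outside the deposited sites, 28S-3606, lies 74 nucleotides from the nearest of them and stood out because it was called higher in a table the comparison of sites does not use. Its score was 0.847 and 0.853 with wild-type FBL, 0.658 and 0.634 with the empty vector, and 0.984 and 0.991 in control knockdown with empty vector. The groups do not overlap, and the change was 0.204 (SE 0.0195, adjusted p = 0.000734 by limma over all positions). In the libraries with nothing re-expressed it was 0.805 and 0.792 in FBL knockdown against 0.956 and 0.966 in control knockdown, a difference of -0.163 (limma adjusted p = 0.00244). Wild-type FBL also exceeded the mean of both mutant groups by 0.317 (limma adjusted p = 1.78e-05), whose libraries had 0.479 and 0.476 for the title FBLTri and 0.572 and 0.604 for FBLQua. The position was picked from 3034 for its change. The cause was not tested.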

How the results depend on the processing

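Made equal, library medians turned the split of called sites to 20 higher and 50 lower (70 in all) for wild-type FBL against empty vector, 51 and 28 (79) for FBL knockdown against control knockdown, 25 and 13 (38) for wild-type FBL against control, and 25 and 48 (73) for wild-type FBL against mutants; by construction this subtracts the difference between library medians. It also reversed 22 of 70 named sites: -0.00401 at 18S-1031, -0.0740 at 5.8S-14, -0.00463 at 18S-159, -0.0119 at 18S-428, -0.0379 at 18S-590, -0.00323 at 28S-4032, -0.00996 at 28S-2350, -0.0600 at 18S-1383, -0.00216 at 28S-1511, -0.0757 at 18S-1328, -0.0614 at 18S-1326, -0.0563 at 18S-116, -0.0816 at 18S-121, -0.0677 at 18S-1703, -0.0296 at 28S-2351, -0.0928 at 28S-4469, -0.0568 at 28S-3771, -0.00139 at 28S-2338, -0.0854 at 18S-172, -0.0364 at 28S-4197, -0.0522 at 28S-1521 and -0.0850 at 28S-1612. In the fit over all positions, in which 4907 positions share the adjustment, the 4 comparisons gave 35, 46, 3 and 45 called sites. The mean difference of 0.0886 was 0.0958 as a difference of the libraries' median scores, 0.0953 with flanks of 2 positions and 0.0989 without predicted sites. Leaving out 1 of the compared libraries gave 53 to 60, 61 to 74, 25 to 34 and 70 to 77 called sites, and a mean difference of 0.0823 to 0.0948. With the replicate block, 69, 71, 33 and 81 sites were called, and the deviations of wild-type and empty-vector libraries of the same number correlated at 0.130. Against empty vector, the log2 protection ratio gave 53 calls and the compared groups alone 58. Of the 25 largest rises 16 stayed called under every alternative run. Sites with few flanking counts have the widest intervals, which limits what can be called there.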

Other observations

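Sites with another deposited site within 6 nucleotides share flanking counts with it. Of these, 26 of 44 rose with wild-type FBL and none fell by limma (59.1%, beside 57.5% of all sites), with a median change of 0.0628 (-0.0330 with library medians made equal). Of the sites that stand alone, 43 of 76 rose (56.6%) and 1 fell, with a median of 0.0419 (-0.0539). In the SNORD127 control clone, a library outside the comparison, 89 sites were at 0.9 or above, and 61 of these rose with wild-type FBL and 1 fell (median 0.0579, or -0.0379 with equal medians). Among the 31 sites below 0.9 in that clone, 8 rose (median 0.0233, or -0.0725), which include 28S-1868, 28S-2863, 28S-2848 and 18S-1447.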
